A study of Homo sapiens with 8 samples.

Results

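The genes examined here encode 4 matrix metalloproteinases (MMP1, MMP2, MMP3 and MMP14), 3 tissue inhibitors of metalloproteinases (TIMP1, TIMP2 and TIMP3), the urokinase plasminogen activator (PLAU) and its receptor (PLAUR). They were taken by gene name from the table of gene counts, and all 9 were among its 60282 genes. SK-UT-1 cells, an established line of human uterine leiomyosarcoma, were treated with the BRD9/7 inhibitor TP-472 at 5 µM for 48 h (4 libraries) or with the vehicle DMSO (4 libraries). Total counts ran from 32574672 to 36634103 per vehicle library and from 36246277 to 38545464 per TP-472 library. All values come from 1 line, and the labels do not say whether the replicates were separate cultures. The study's methods call the replicates of its experiments biological in general. The p-values measure the spread between these libraries.

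Matrix metalloproteinases are zinc-dependent enzymes that are made as inactive precursors and cut collagens and other proteins around the cell. TIMPs bind their active sites and block them. Urokinase, held at the cell surface by its receptor, turns plasminogen into plasmin, a protease that degrades fibrin and can activate several MMP precursors. These genes are known for their part in invasion and tissue remodelling, in smooth muscle tumours as in other cancers.

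Before the comparison, the libraries were checked. Vehicle replicate 3 stood apart: over the 14073 genes tested, its median Spearman correlation with the other vehicle libraries was 0.914, against 0.988 to 0.989 for vehicle replicates 1, 2 and 4 and 0.993 to 0.997 for the TP-472 libraries. Results that rest on it are given with and without it. Of the smooth muscle genes, ACTA2 (160 ± 16.7 CPM in vehicle) and CALD1 (200 ± 15.3 CPM) were abundant (SD, n = 4 each), whereas MYH11, the smooth muscle myosin, had 1 count and ACTG2 3 counts over the 4 vehicle libraries. The 9 smooth muscle genes summed to 481 ± 34.6 CPM in vehicle and 375 ± 4.18 CPM with TP-472, where DES (log2 fold change −2.36), LMOD1 (−1.84) and TAGLN (−0.67) were called lower, 3 of 7 tested, beside 14.9% of all genes, and MYH11 had 35 counts. The lower calls were 4 without vehicle replicate 3 and 2 with the trend with GC content removed, where TAGLN (−0.46) lost its call. DES and LMOD1 passed the filter of 1 CPM only through their vehicle libraries. The part of this in the protease genes was not tested. CPM are counts scaled to library size and composition by edgeR's TMM method. Of 7 leukocyte markers, listed since leukocytes are a source of MMPs in tumours, PTPRC had 1 count over all 8 libraries and TYROBP 0, which allows up to 3 counts, and 5 of the 7 were under 1 CPM in every library. CD68 was the most abundant of them, at 7.53 ± 0.573 CPM in vehicle and 10.4 ± 1.48 CPM with TP-472, and the 7 together summed to 8.83 ± 0.705 and 12.7 ± 1.55 CPM. ITGAM (97 and 186 counts per group) and CD14 (82 and 131 counts) were higher in every TP-472 library than in any control. The part of this in the protease genes was not tested.

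With TP-472, the interstitial collagenase MMP1, the inhibitor TIMP3 and the urokinase receptor PLAUR rose, and the membrane-bound MMP14 and its partner TIMP2 fell. In bulk RNA, fewer cells that express a gene and less of its RNA per cell cannot be told apart. Calls were made in edgeR's quasi-likelihood test across all genes and required more than a 1.5-fold change with an adjusted p below 0.05. Of the 9 genes, 8 passed the filter of more than 1 CPM in at least 4 libraries, and 3 were called higher and 2 lower. Among all genes tested, 26.9% were called, 12.0% higher and 14.9% lower. In 6 of the 8 genes the groups did not overlap in CPM, as in 45.4% of all genes tested. MMP1 had to differ to be tested, since only its TP-472 libraries passed the filter, so these counts say nothing about the genes as a group. MMP3 did not pass. Without vehicle replicate 3, TIMP1 was called as well, giving 4 genes higher and 2 lower, where 25.5% of all genes were called, 12.0% higher and 13.4% lower. The counts were also 4 and 2 with the trend with GC content removed (28.3% of all genes, 13.6% higher and 14.7% lower).

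**Figure D1:**
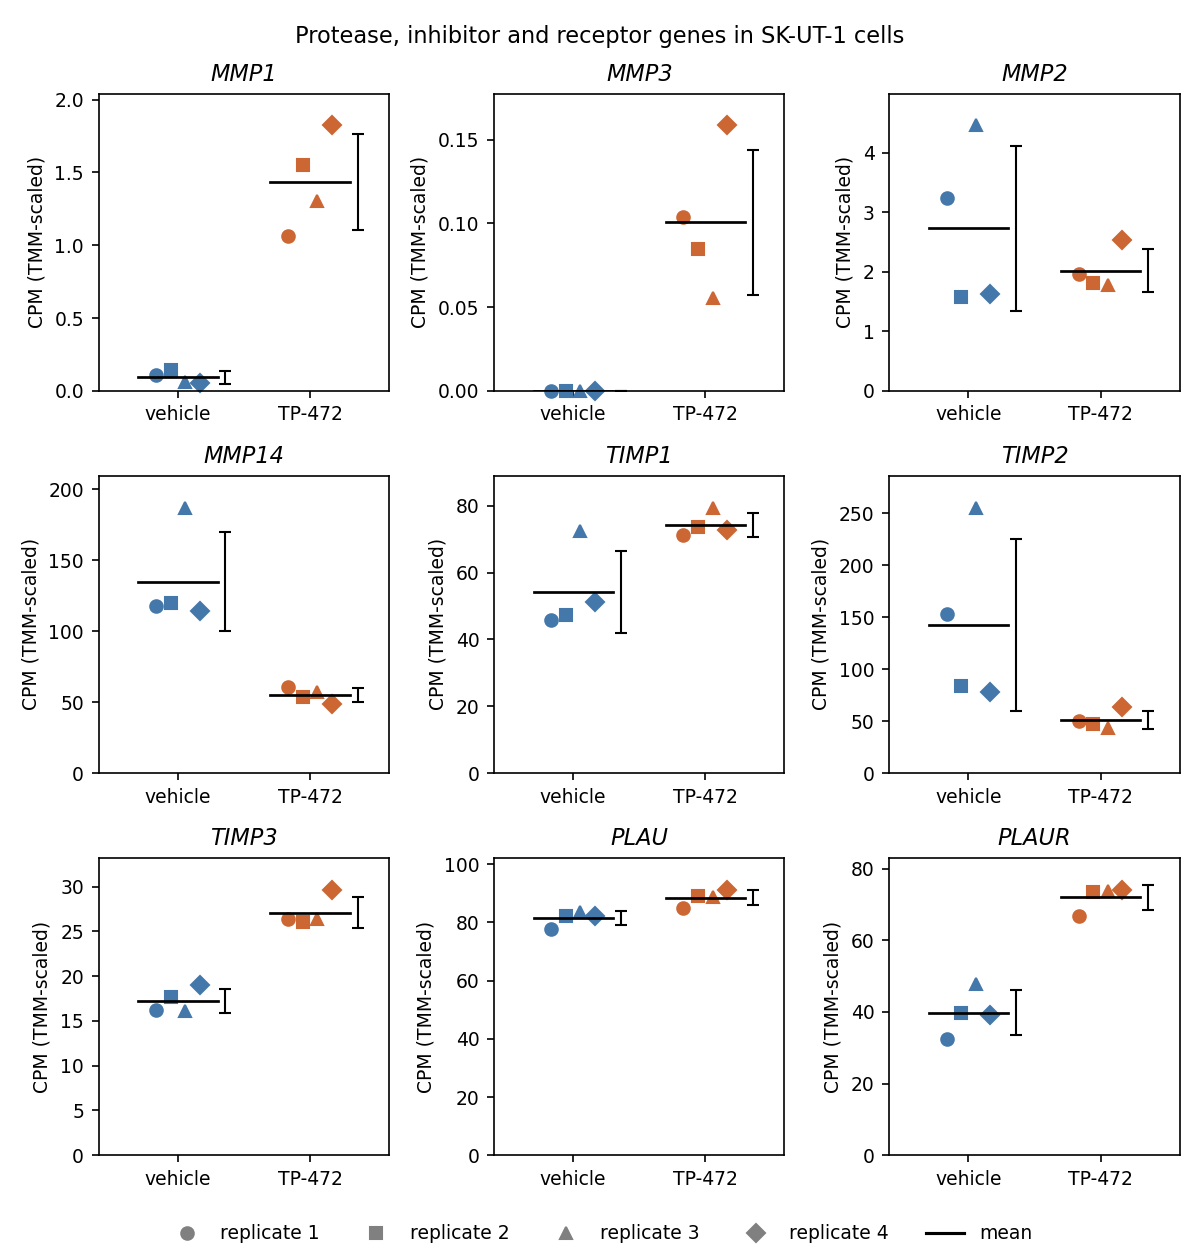
CPM (TMM-scaled) of the 9 genes in each library, vehicle on the left and TP-472 on the right of each panel. Symbols give the replicate number, black lines the mean and bars the SD (n = 4). MMP1, MMP3, TIMP3, PLAU and PLAUR were higher in every TP-472 library, MMP14 and TIMP2 lower in every one, and vehicle replicate 3 was the highest vehicle library of MMP2, MMP14, TIMP1, TIMP2, PLAU and PLAUR.

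MMP14 (ENSG00000157227.13; chromosome 14 from 22836557 to 22849027, GRCh38) encodes a metalloproteinase anchored in the cell membrane, which cuts collagen and activates the precursor of MMP2. Its level was 118, 120, 187 and 114 CPM in vehicle replicates 1 to 4 and 60.8, 53.9, 56.9 and 48.7 CPM in the TP-472 replicates. All TP-472 libraries lay below all vehicle libraries, and vehicle replicate 3 was far above the other controls. MMP14 thus fell 2.45-fold, a log2 fold change of −1.29 (SE 0.175, adjusted p = 0.00100), or −1.09 without vehicle replicate 3 (adjusted p = 5.11e-06).

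The bases before the RefSeq start of MMP14 are shown because MMP14 had the most CPM of the 23 MMP genes in the line and fell. The stretch chr14:22836335-22836556 lies on the plus strand of GRCh38.p14 and ends where GENCODE release 29 begins the transcript. Capitals mark the GC box, the letters GGGCGG on either strand, which Sp1 is known to bind.
MMP14: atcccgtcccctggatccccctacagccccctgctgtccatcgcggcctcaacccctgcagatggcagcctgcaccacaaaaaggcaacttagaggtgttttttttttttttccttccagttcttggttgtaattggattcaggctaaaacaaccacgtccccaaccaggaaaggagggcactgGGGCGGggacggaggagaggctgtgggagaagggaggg
The 250 bases before the start held 1 GC box, at −66 to −61, and 42.6% of 35116 RefSeq promoters of that length held at least 1. They held no match to TGANTCA, the AP-1 motif, which reads the same on both strands and occurred in 6.57% of the promoters.

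TIMP2 (ENSG00000035862.12; chromosome 17 from 78852977 to 78925387) encodes an inhibitor that also bridges MMP14 and the precursor of MMP2 at the cell surface. Vehicle replicates 1 to 4 had 153, 83.4, 256 and 78.5 CPM, and the TP-472 replicates 49.8, 47.2, 43.9 and 63.3 CPM. The groups did not overlap, but the vehicle libraries fell into a higher pair (1 and 3) and a lower pair (2 and 4). On the log2 scale the change was −1.48 (SE 0.362, adjusted p = 0.0134), and −1.04 without vehicle replicate 3 (adjusted p = 0.00318) or −0.79 in limma-voom with quality weights. Another gene on the same strand within TIMP2, CEP295NL, had a mean of 3.83 CPM in vehicle and 1.51 CPM with TP-472, and reads common to both genes could have been divided between them.

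MMP2 (ENSG00000087245.13; chromosome 16 from 55389700 to 55506691), a gelatinase that digests denatured and basement membrane collagen, was expressed at a low level. It had 3.24, 1.58, 4.46 and 1.63 CPM in the vehicle replicates and 1.97, 1.80, 1.78 and 2.54 CPM in the TP-472 replicates. As for TIMP2, vehicle replicates 1 and 3 were high and 2 and 4 low, and all TP-472 libraries lay within the vehicle range. The estimated log2 fold change was −0.43 (SE 0.346, 95% interval −1.11 to 0.25, adjusted p = 0.346), so a decrease of 2-fold was within the interval. Without vehicle replicate 3 it was −0.090 (adjusted p = 0.795).

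TIMP3 (ENSG00000100234.11; chromosome 22 from 32801701 to 32863043) encodes the inhibitor that stays bound to the matrix and also blocks several ADAM proteases. It was at 16.2, 17.6, 16.1 and 19.0 CPM in the vehicle replicates and 26.4, 26.0, 26.3 and 29.6 CPM in the TP-472 replicates. Every treated library was above every control, and the controls differed little, vehicle replicate 3 included. TIMP3 rose 1.57-fold, a log2 fold change of 0.65 (SE 0.108, adjusted p = 0.00247). That is close to the limit of 1.5-fold, and 2 alternatives took it below.

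The promoter of TIMP3 is shown beside that of MMP14, since these 2 genes moved in opposite directions. It is the stretch chr22:32801455-32801700, plus strand, GRCh38.p14, with GC boxes in capitals.
TIMP3: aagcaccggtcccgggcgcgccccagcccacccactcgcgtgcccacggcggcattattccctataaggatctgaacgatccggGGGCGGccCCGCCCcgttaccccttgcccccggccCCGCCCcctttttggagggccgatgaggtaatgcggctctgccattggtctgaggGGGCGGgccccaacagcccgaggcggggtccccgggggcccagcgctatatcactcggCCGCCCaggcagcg
The 250 bases before its start held 5 GC boxes and no match to TGANTCA, and 72.4% of the bases were G or C, against 56.8% for MMP14. PLAUR, which also rose, had 0 GC boxes there (63.2% G or C), and TIMP1 had 2 (64.8%). PLAU, not called, had 0 and 3 before its 2 starts (46.8% and 68.8%). A link of GC boxes with the direction of change was not tested.

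TIMP1 (ENSG00000102265.12; chromosome X from 47582313 to 47586789), a secreted inhibitor of most MMPs, was at 45.9, 47.4, 72.4 and 51.3 CPM in the vehicle replicates and 71.3, 73.8, 79.5 and 72.8 CPM in the TP-472 replicates. Vehicle replicate 3 was as high as the treated libraries, and the other controls were lower than all of them. With all libraries, the log2 fold change of TIMP1 was 0.45 (SE 0.153, adjusted p = 0.0442), below the fold limit. Leaving out vehicle replicate 3 gave 0.63 (adjusted p = 5.00e-05), and TIMP1 was then called higher. With any other library left out, its adjusted p was 0.0834 to 0.116 and it was not called.

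PLAUR (ENSG00000011422.12; chromosome 19 from 43646095 to 43670547), the receptor that holds urokinase on the cell, had 32.4, 39.6, 47.7 and 39.2 CPM in the vehicle replicates and 66.8, 73.5, 73.7 and 74.1 CPM in the TP-472 replicates. All vehicle libraries lay below all treated libraries. PLAUR rose 1.81-fold, a log2 fold change of 0.86 (SE 0.128, adjusted p = 0.00148), and of 0.96 without vehicle replicate 3 (adjusted p = 1.65e-05).

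PLAUR was the only gene among the 5 with a promoter in the RefSeq table (MMP14, TIMP1, TIMP3, PLAU and PLAUR) to have a match to TGANTCA in the 250 bases before a start. The 30 bases around it, chr19:43670337-43670366 on the minus strand of GRCh38.p14, are printed 5′ to 3′ with the match in capitals.
PLAUR: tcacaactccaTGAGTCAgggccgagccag
The match lies from −186 to −180 of the RefSeq start and within a longer 5′ exon of GENCODE release 29. A match is a description of the letters only. AP-1 is made of FOS and JUN proteins, and of its 7 subunit genes, all tested, FOSL1 (log2 fold change 1.52, adjusted p = 0.0158, and 2.11 without vehicle replicate 3) and JUN (1.16, adjusted p = 0.0303, and 1.72 without it) were called higher and FOSL2 (−0.67, adjusted p = 0.0159) lower, beside 12.0% and 14.9% of all genes. The median over the 7 was 0.28, and 0.68 without vehicle replicate 3 and 0.78 with the GC trend removed, against −0.026 over all genes. Vehicle replicate 3 had by far the highest control level of JUN, 134 CPM against 43.1 to 49.9 CPM. Without it 5 subunit genes were called higher and none lower, beside 12.0% and 13.4% of all genes, and FOSL2, at −0.47, was below the fold limit. JUND was not called (−1.15, adjusted p = 0.103, and −0.22 without vehicle replicate 3). A link of these changes to PLAUR was not tested.

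PLAU (ENSG00000122861.16; chromosome 10 from 73909177 to 73917497), the gene of urokinase itself, differed little. Vehicle replicates had 77.8, 82.3, 83.6 and 82.3 CPM and TP-472 replicates 85.1, 89.2, 88.7 and 91.2 CPM. Every treated library was above every control (p = 0.0286 by a two-sided exact permutation test, which cannot go lower with 4 libraries a group). In edgeR, its log2 fold change of 0.12 was not called (SE 0.0843, 95% interval −0.046 to 0.28, adjusted p = 0.285), and the interval leaves out a change of 1.5-fold.

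MMP1 (ENSG00000196611.5; chromosome 11 from 102789920 to 102798160), the collagenase that cleaves fibrillar collagen, was near the limit of detection in the controls. The vehicle replicates held 4, 5, 2 and 2 counts and the TP-472 replicates 41, 55, 47 and 69 counts. Every treated library was above 1 CPM and no control above 0.144 CPM. From 13 counts over the vehicle group, MMP1 rose 15.0-fold (95% interval 9.50 to 23.8), a log2 fold change of 3.91 (SE 0.338, adjusted p = 1.19e-04). Even so, MMP1 remained a minor transcript, at 1.43 ± 0.327 CPM with TP-472 (SD, n = 4).

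MMP3 (ENSG00000149968.12; chromosome 11 from 102835801 to 102843803), also called stromelysin-1, cleaves proteoglycans and activates other MMP precursors. It had no count in any vehicle library and 4, 3, 2 and 6 counts in the TP-472 replicates. Against 3 counts over the vehicle group, what a count of 0 allows, the observed TP-472 level was 4.76-fold higher. That value leaves out the counting error of the 15 counts with TP-472. The difference between the groups had p = 0.0286 in a two-sided exact permutation test, which gives no size of the change. MMP3 and MMP10 are close paralogues, and reads common to both are divided by estimation.

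MMP1 and MMP3 lie in a cluster of metalloproteinase genes on chromosome 11, from MMP7 at 102520508 to MMP13 at 102955734. Among its 9 genes, MMP12 (macrophage elastase) had no count in vehicle and 4, 4, 2 and 10 counts with TP-472, and MMP10 (stromelysin-2) had 5 counts in vehicle, all of them in replicate 4, and 24 with TP-472. MMP7, MMP8, MMP13, MMP20 and MMP27 had at most 2 counts in either group. Outside the cluster, MMP9, a gelatinase, had 9, 9, 4 and 9 counts in vehicle and 37, 20, 13 and 32 with TP-472.

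**Figure D2:**
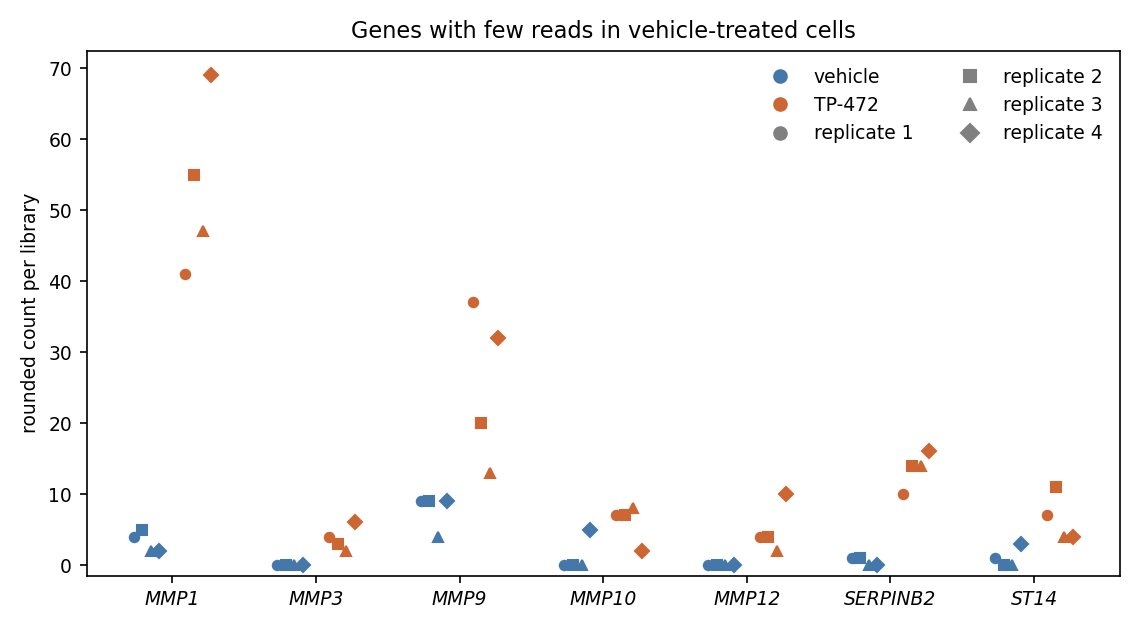
Rounded counts per library (vertical axis) of 7 genes with few reads in vehicle-treated cells, with vehicle in blue, TP-472 in orange and symbols for the replicate. MMP1 reached 41 to 69 counts with TP-472, and MMP10 is the gene shown whose groups overlapped.

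In a fit without a filter (33192 genes, of which 15.3% were called, 7.21% higher and 8.13% lower), MMP3, MMP9 and MMP12 were called higher (adjusted p = 0.0232, 0.0205 and 0.0149) and MMP10 was not (adjusted p = 0.186). These were the 3 calls among the 14 MMP genes under the filter that had a count. MMP21 (5 and 1 counts) and MMP23B (74 and 41 counts) had fewer counts with TP-472 and were not called. TP-472 libraries had a count for more genes in general, 25363 to 26211 against 23325 to 23939 in vehicle, and the 6 endothelial markers, all under 1 CPM in every library, summed to 0.357 ± 0.188 CPM in vehicle and 0.754 ± 0.187 CPM with TP-472. Among these, PECAM1 had 2 and 29 counts, CDH5 0 and 11, VWF 13 and 30, KDR 0 and 4, and TIE1 1 and 6. CLDN5 had 34 and 31 counts. The 7 fibroblast markers, with COL1A2 the most abundant and DCN and LUM at 1 count or none per group, summed to 1073 ± 55.6 and 270 ± 10.5 CPM. Of the 5 that were tested, the collagens COL1A1 (−2.35, and −1.46 without vehicle replicate 3), COL1A2 and COL3A1 were called lower, beside 14.9% of all genes tested, and PDGFRA (log2 fold change 0.20) and FAP (0.26) were not called. The part of this in the low MMP genes was not tested.

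Of the 23 genes of the MMP family, 7 were tested, with 1 called higher (MMP1) and 2 lower (MMP14 and MMP11), where 12.0% of all genes tested were called higher and 14.9% lower. Since MMP1 had to differ to be tested, these counts say nothing about the family as a group. The median log2 fold change was −0.43, against −0.026 over all genes, but −0.14 without vehicle replicate 3 and −0.012 with the GC trend removed. MMP11 (stromelysin-3) was at 7.79, 8.36, 11.5 and 9.19 CPM in vehicle replicates and 3.26, 3.07, 3.69 and 2.56 CPM in TP-472 replicates. The groups did not overlap, and MMP11 changed by −1.55 on the log2 scale (SE 0.179, adjusted p = 4.52e-04). For MMP15, MMP17 and MMP24, which are membrane-bound like MMP14, the log2 fold changes were −0.60, −0.32 and −0.31 (adjusted p = 0.168, 0.518 and 0.107). Without vehicle replicate 3 they were −0.14, 0.24 and −0.16 (adjusted p = 0.0301 for MMP24, none called).

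Among 6 inhibitor genes, 4 were tested, and besides TIMP2 and TIMP3 the third call (1 higher and 2 lower, beside 12.0% and 14.9% of all genes) was RECK, a membrane-anchored protein known to restrain several MMPs. RECK had 28.6, 30.4, 26.8 and 29.5 CPM in vehicle replicates and 11.9, 13.0, 13.0 and 12.4 CPM in TP-472 replicates. The libraries of each group were close together and far from those of the other group, vehicle replicate 3 included. RECK thus fell with a log2 fold change of −1.20 (SE 0.101, adjusted p = 1.10e-04). TIMP4 had 9 counts in vehicle and 5 with TP-472, and A2M had none and 3.

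**Figure D3:**
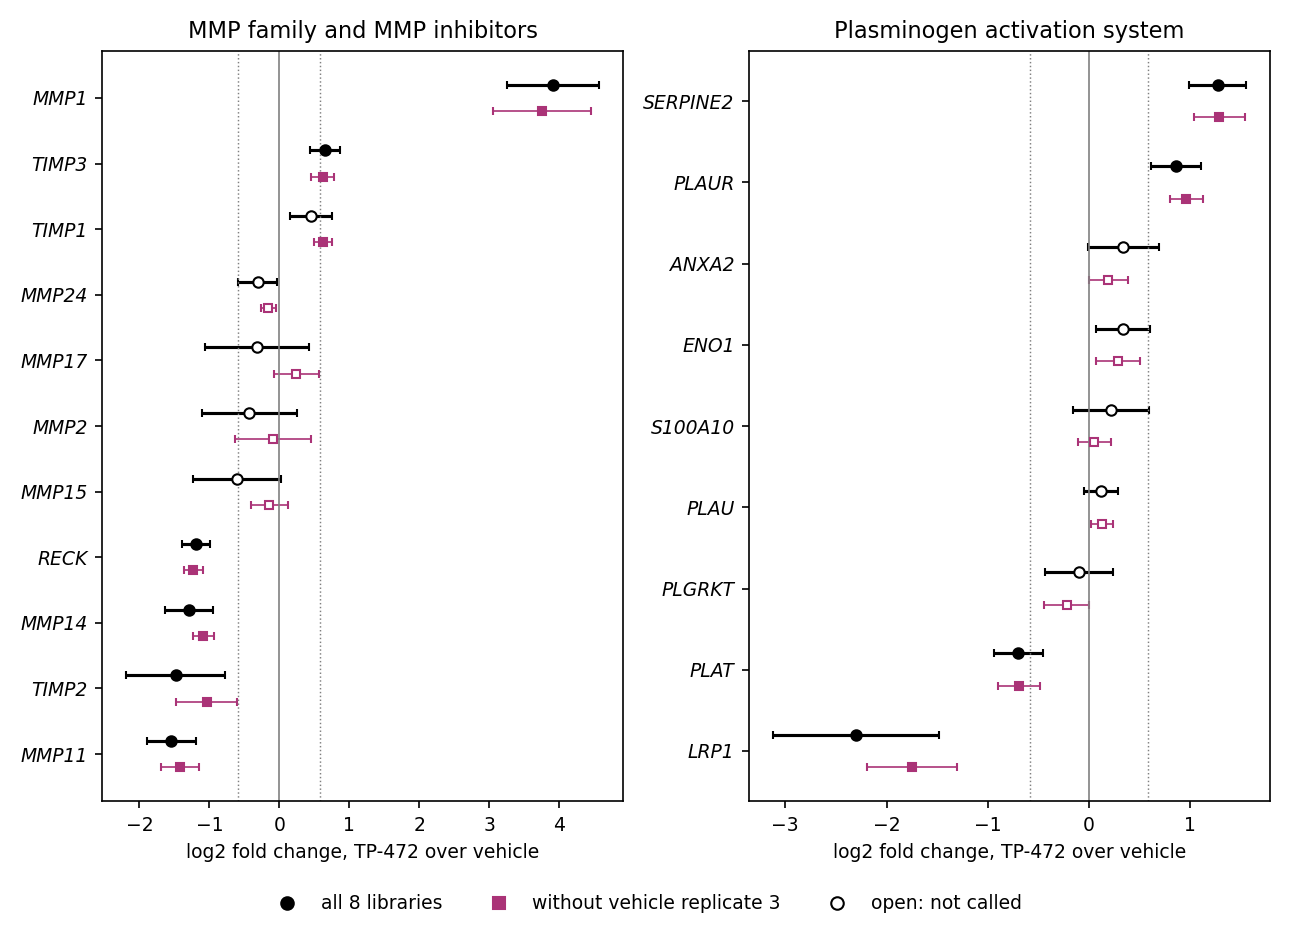
Log2 fold change (TP-472 over vehicle, horizontal axis) of the tested genes of the MMP family with its inhibitors and of the plasminogen activation system, with 95% intervals, from all 8 libraries (black) and without vehicle replicate 3 (purple). Filled symbols were called, dotted lines mark 1.5-fold, and TIMP1 is the gene called only without vehicle replicate 3.

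In the plasminogen activation system, 9 of 17 listed genes were tested, with 2 called higher (PLAUR and SERPINE2) and 2 lower (PLAT and LRP1), beside 12.0% and 14.9% of all genes. The median log2 fold change was 0.22, and 0.13 without vehicle replicate 3. SERPINE2, an inhibitor of urokinase and thrombin, rose from 4.01 ± 0.519 to 9.68 ± 0.632 CPM (SD, n = 4 each; log2 fold change 1.27, adjusted p = 4.15e-04). SERPINB2, also an inhibitor of urokinase, did not pass the filter, with 2 counts in vehicle and 54 with TP-472, and was called higher without a filter (adjusted p = 0.00104).

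PLAT, the tissue-type plasminogen activator, fell from 20.1 ± 1.84 to 12.4 ± 1.16 CPM (SD, n = 4 each; log2 fold change −0.70, adjusted p = 0.00330). LRP1, the receptor that takes up complexes of proteases and their inhibitors, had 85.5, 41.8, 164 and 43.5 CPM in vehicle replicates and 18.1, 16.5, 15.3 and 18.0 CPM in TP-472 replicates. Its controls showed the same higher pair (1 and 3) as those of TIMP2, and all of them were above the treated libraries. LRP1 changed by −2.30 on the log2 scale (SE 0.419, adjusted p = 0.00372), and by −1.75 without vehicle replicate 3. PLG, which encodes plasminogen, had no count in any library, and the plasminogen-binding proteins ANXA2, S100A10, ENO1 and PLGRKT were not called (adjusted p = 0.166, 0.384, 0.0785 and 0.675).

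To compare genes with each other, CPM were divided by the length of their merged exons in GENCODE release 29. In vehicle, the ranges of TIMP1 (29.8 to 47.0 CPM per kb) and PLAU (26.4 to 28.3) did not overlap each other, but both overlapped those of MMP14 (25.6 to 41.9) and TIMP2 (13.9 to 45.4). They were followed by PLAUR (7.26 to 10.7), TIMP3 (3.50 to 4.13), MMP2 (0.320 to 0.904) and MMP1 (0.0285 to 0.0729). With TP-472, TIMP1 (46.3 to 51.6 CPM per kb) stood above PLAU (28.8 to 30.9) and PLAUR (15.0 to 16.6), and MMP14 (10.9 to 13.6) and TIMP2 (7.79 to 11.2) came after them with overlapping ranges. MMP1 (0.539 to 0.925) passed MMP2 (0.360 to 0.514). The place of PLAUR depends on its length, 4457 bases of merged exons but 1610 in the longest transcript, and with the latter it had 20.1 to 29.6 CPM per kb in vehicle and 41.5 to 46.0 with TP-472.

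**Figure D4:**
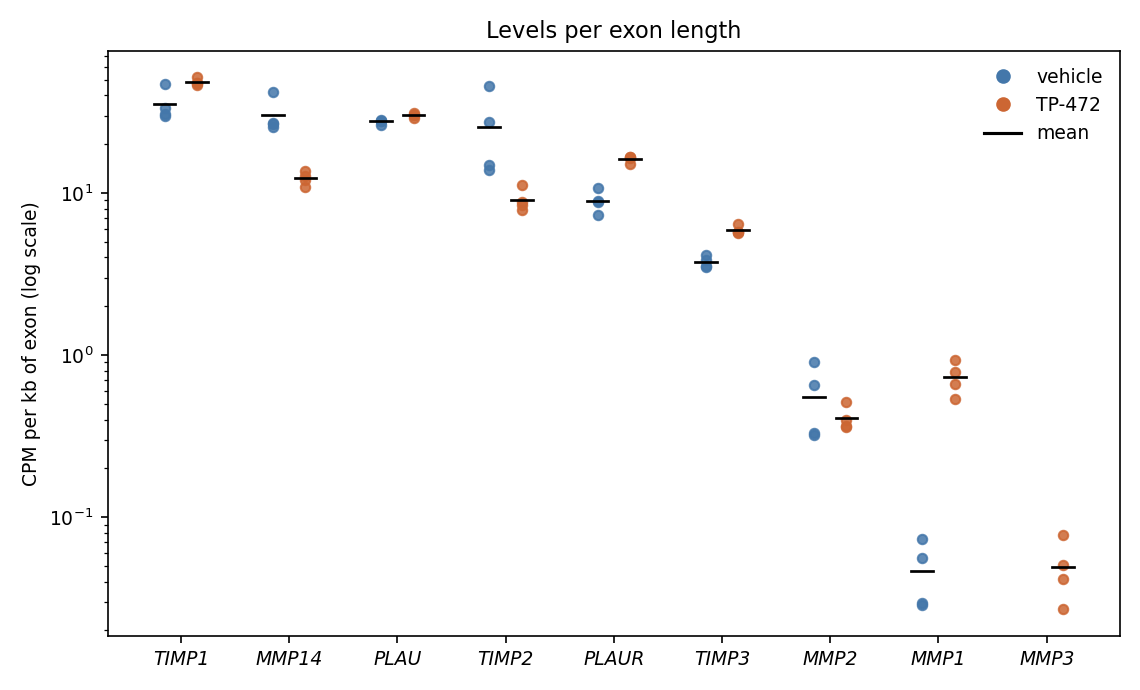
CPM per kb of merged exon (logarithmic vertical axis) of the 9 genes, with 1 point per library and the mean as a line. With TP-472 all libraries of MMP14 and TIMP2 lay below those of PLAU and PLAUR, whereas in vehicle their ranges overlapped that of PLAU and lay above that of PLAUR; MMP3 had no count in vehicle and is drawn for TP-472 alone.

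Ratios of a protease to its inhibitor within each library are given as a description, without a test. MMP14 per TIMP2 was 0.970, 1.81, 0.924 and 1.84 in vehicle replicates and 1.54, 1.44, 1.64 and 0.970 in TP-472 replicates, so both genes fell with no separation of their ratio. MMP1 per TIMP1 was 6.26e-04 to 0.00237 in vehicle and 0.0116 to 0.0196 with TP-472.

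Among all genes tested, those whose log2 CPM followed MMP1 most closely over the 8 libraries were RRAD (r = 0.996), KCTD12 (r = 0.995) and GEMIN5 (r = 0.994). All were higher with TP-472 (log2 fold changes 3.10, 2.90 and 0.70). RRAD and KCTD12 averaged 0.291 and 0.411 CPM in vehicle and 2.52 and 3.09 CPM with TP-472. Their vehicle libraries alone could not have passed the filter of 1 CPM, so, as for MMP1, being tested depended on their level with TP-472. TIMP2 had the largest decrease of the 9 genes with all libraries (without vehicle replicate 3 that was MMP14). The genes closest to TIMP2 were PHF13 (r = 0.998), ASXL1 (r = 0.998) and NAV2 (r = 0.996). PHF13 was not called (log2 fold change −0.34, adjusted p = 0.0570), whereas ASXL1 and NAV2 were called lower (−0.59 and −1.67). The points of each correlation share the difference between the groups and, for TIMP2, vehicle replicate 3.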

How the data were processed

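The authors mapped reads with STAR, quantified them with Salmon 1.4.0 and summed them by gene with tximport and GENCODE release 34. The deposited values are estimated counts on GRCh38, neither scaled nor filtered, and were rounded here. The labels name a TruSeq RNA kit, the study's methods a strand-specific total RNA protocol; how strand was used in counting is not given in the sources used here. Genes on the opposite strand of TIMP1 (SYN1), TIMP3 (SYN3), PLAU (C10orf55), MMP1 and MMP3 (WTAPP1) had at most 1.16 CPM on average.

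A gene entered the test if 4 or more of the 8 libraries had over 1 CPM. The test was the quasi-likelihood test of edgeR 4.0.16 (R 4.3.3, TMM, Benjamini-Hochberg over 14073 genes). Groups follow the sample titles. In simulated data with 100 genes changed 2-fold and 100 changed 4-fold, 54 and 98 were called, with 7 calls among 13873 unchanged genes. The simulated counts were drawn independently, with no GC trend and no library that stood apart as vehicle replicate 3 did. The number of false calls in the real data can therefore differ. Alternatives were DESeq2 1.42.0, limma-voom (limma 3.58.1), other scalings and filters, unrounded counts, robust estimation, a replicate block and each library left out. Removal of the trend with GC content was added after seeing the data. The genes and lists were chosen with earlier results of these data known, and 1 listed gene is not reported here. Named genes were the 9 genes, the listed MMP, inhibitor, plasminogen and AP-1 genes, the listed other proteases with the largest called changes, and the 3 genes most correlated with the called gene of largest increase and of largest decrease among the 9. Positions and lengths come from GENCODE release 29, matched by identifier. No library was a copy of another (lowest mean chi-square between a pair 12.8). Intervals of fold changes come from edgeR's standard errors and include the spread between libraries. Limits from a count of 0 cover only the counting error of that 0.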

Additional observations from a re-analysis of the deposited data

Results flagged for a closer look

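In 28 groups of 4 values (the CPM of the 9 genes, the ratios and measures of the libraries), 5 had a lowest or highest value far from the other 3 by Dixon's test; chance alone gives about 1 in 20 groups. MMP14 reached 187 CPM in vehicle replicate 3, against at most 120 CPM in the other controls, and was lower in every TP-472 library with or without it. TIMP3 reached 29.6 CPM in TP-472 replicate 4, above 26.4 CPM in the next, and PLAUR was lowest of the treated libraries in TP-472 replicate 1, at 66.8 CPM against 73.5 CPM in the next. The median Spearman correlation with the other libraries of the group was 0.914 for vehicle replicate 3 and 0.993 for TP-472 replicate 4.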

How the results depend on the processing

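MMP1, MMP14, TIMP2 and PLAUR were called in the same direction under every alternative that tested them (MMP1 did not pass the stricter filter of 5 CPM), and PLAU under none. With any 1 library left out, the log2 fold change ran from 3.74 to 4.19 for MMP1, −1.36 to −1.09 for MMP14, −1.69 to −1.04 for TIMP2, 0.61 to 0.70 for TIMP3, 0.38 to 0.63 for TIMP1 and 0.77 to 0.96 for PLAUR. TIMP1 was called without vehicle replicate 3 (0.63), with the GC trend removed (0.72) and with both (0.69). Its adjusted p was under 0.05 in DESeq2 (0.0253) and limma-voom (0.0361), but over it with upper-quartile (0.0548) and total-count scaling (0.0861). It was also over 0.05 with the replicate block (0.0535), the stricter filter (0.0678), no filter (0.0510) and any other library left out. TIMP3 fell under the fold limit in limma-voom with quality weights (0.53) and with the GC trend removed and vehicle replicate 3 left out (0.58). MMP2 turned to 0.18 (adjusted p = 0.345) with quality weights and was not called, and TIMP2 was −0.79 there. The cause of these shifts was not tested.

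Over all genes, leaving out 1 library gave 1387 to 2399 genes called lower. Without vehicle replicate 3, 2 of 4 tested inhibitor genes, 2 of 12 ADAM genes and 5 of 7 AP-1 genes were called higher. Lower calls were 3 of 14 other pericellular protease genes and 0 AP-1 genes. Of all genes tested, 12.0% were called higher and 13.4% lower there. With the GC trend removed, the higher calls were 2, 2 and 5 and the lower calls 2 and 0, beside 13.6% and 14.7% of all genes. With the longest transcript as length, MMP14 per TIMP2 was 1.08 and MMP1 per TIMP1 0.0107 in TP-472-treated cells. Same-numbered libraries did not deviate together (correlations −0.177 to 0.116), so replicate numbers were not taken as pairs; with a replicate block, 3055 genes were called in place of 3789, and the calls of the 9 genes did not change.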

Other observations

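Other proteases at the cell surface and their inhibitors were also measured. TFPI2, a secreted inhibitor of plasmin and other serine proteases, had 2, 10, 0 and 2 counts in vehicle replicates and 177, 182, 190 and 209 with TP-472 (log2 fold change 5.64, standard error 0.564, adjusted p = 2.50e-04). Only its TP-472 libraries passed the filter, so it had to differ to be tested. CTSL, a lysosomal cysteine protease that is also secreted, rose from 47.9 ± 16.9 to 95.1 ± 5.02 CPM (SD, n = 4 each; log2 fold change 0.99, adjusted p = 0.0143). Of 14 tested genes of that list, 2 were called higher and 5 lower (3 lower without vehicle replicate 3 and 2 with the GC trend removed), beside 12.0% and 14.9% of all genes, and those lower with the largest changes were DPP4 (log2 fold change −1.04), FURIN (adjusted p = 0.0453), CTSS (−0.94) and BMP1 (−0.91, but −0.52 and not called with the GC trend removed). FURIN, the convertase that removes the propeptide of MMP14, was at 8.08 ± 0.287 CPM with TP-472 and 16.2 ± 9.87 CPM in vehicle, and was not called without vehicle replicate 3 (log2 fold change −0.48).

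In the ADAM and ADAMTS list, 12 of 30 genes were tested, with 1 called higher, ADAM23 (log2 fold change 0.90), and 4 lower, ADAM33 (−3.27), ADAMTS13 (−1.90), ADAMTS7 (−1.79) and ADAMTS2 (−1.38), beside 12.0% and 14.9% of all genes. Without vehicle replicate 3 the 4 were still called, at −2.77, −1.34, −1.02 and −1.03, and the level of ADAMTS7 in that library was 53.9 CPM. ADAM33, known for its genetic link to asthma, fell from 3.81 ± 2.25 to 0.393 ± 0.159 CPM, but passed the filter only through its vehicle libraries, so it had to differ to be tested, and the count of 4 includes it. ADAMTS1, a protease that cuts versican and aggrecan, was under the filter, with 4, 2, 4 and 2 counts in vehicle and 56, 35, 31 and 49 with TP-472 (adjusted p = 3.84e-05 without a filter). Of the 18 genes of that list under the filter, ADAMTS1, ADAMTS4 and ADAMTS17 were called higher in that fit and ADAMTS10 lower (132 and 36 counts, adjusted p = 0.00457), beside 7.21% and 8.13% of all genes, all named after their values were seen.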
